A study of Arabidopsis thaliana with 60 samples.

Results

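The 31 genes described here are a selection of the nuclear genes of leaf carbon fixation and photorespiration in Arabidopsis thaliana, and were picked from the read count table by their gene identifiers: 4 Rubisco small subunits, Rubisco activase, 12 Calvin cycle enzymes, the regulatory proteins CP12-1 and CP12-2, and 12 photorespiration enzymes, of 25036 genes in all. Of the 31 genes, 30 passed the filter on low counts, among 16763 genes that did. The exception was PGLP1 (AT5G36700), a phosphoglycolate phosphatase, with 0 to 4 counts in a library. Its near-identical copy AT5G36790 had 0 to 6, so neither was tested.

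In the Calvin cycle, Rubisco joins CO2 to ribulose bisphosphate, the products are reduced to triose phosphates with ATP and NADPH from the light reactions, and the remaining enzymes rebuild the acceptor. Rubisco activase keeps Rubisco free of inhibitory sugar phosphates, and CP12 holds phosphoribulokinase and glyceraldehyde phosphate dehydrogenase in an inactive complex in the dark. When Rubisco takes oxygen instead of CO2 it makes phosphoglycolate, which photorespiration returns to the cycle through steps in the chloroplast, the peroxisome and the mitochondrion. Lower transcript levels of photosynthesis genes are a common part of leaf immune responses.

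All plants were of the Col-0 ecotype and carried the dde2, ein2, pad4 and sid2 mutations, which impair jasmonate synthesis, ethylene signalling, PAD4 function and salicylic acid synthesis, together with Ed-AvrRpt2, an estradiol-inducible transgene for the Pseudomonas syringae effector AvrRpt2, which leaves sense through RPS2. Leaves of 4-week-old plants, grown at 22 °C in 12 h of light, were infiltrated 3 to 4 h after subjective dawn with Mock solution (0.1% ethanol), with 1 µM flg22, a peptide of bacterial flagellin that elicits pattern-triggered immunity, with 10 µM estradiol (Ed) in 0.1% ethanol, which elicits effector-triggered immunity, or with flg22+Ed at the same concentrations in 0.1% ethanol. For flg22 alone the labels name no ethanol. A sample pooled 2 leaves from each of 2 plants, taken at 60, 120, 180 or 300 min or from untouched leaves at 0 min, and each of the 20 groups was sampled in 3 independent experiments. No group lacked the transgene, so estradiol and AvrRpt2 cannot be told apart. RNA was counted by 3′ tags (Smart-3SEQ), so levels are given as CPM, counts scaled to a common library total, and are compared between samples, not between genes. In bulk leaf RNA, fewer cells of a type and less RNA per cell cannot be told apart.

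The 60 libraries held 1.46 to 4.67 M (mega) counts (median 3.52 M), and 3 counts, taken here as the least that is told from 0, were 0.642 to 2.06 CPM. All 40 nuclear photosystem and antenna genes used to check the tissue had counts in every library. In replicate 2, 4 libraries stood apart from their labels: the libraries labelled Mock at 0, 60 and 300 min and flg22 at 0 min. LHY is a clock gene that is high at dawn. Among the Mock libraries at 300 min its level was 3.07, 316 and 1.54 CPM in replicates 1, 2 and 3, and among the untouched libraries with the flg22 label it was 268, 4.65 and 359 CPM. The departures of LHY were smaller among the Mock libraries at 0 min (284, 106 and 391 CPM) and at 60 min (158, 250 and 149 CPM). Some libraries that were not set apart also differed from their group in LHY, as in Ed at 120 min (43.5, 30.6 and 96.8 CPM). The labels were kept, and many results that rest on these libraries are given without them as well, for single genes as the fitted change. A value given only with all libraries may still depend on them. In what follows, a gene fell or rose where its Benjamini-Hochberg adjusted p over all genes tested was under 0.05 in edgeR's quasi-likelihood test, changes are log2 fold changes, and ± is the size of the change divided by the square root of its F statistic.

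Transcripts of the 31 genes together made up 6.67% ± 1.06 (SD, n = 12) of all counts in untouched leaves, or 7.07% ± 0.377 (SD, n = 10) without the 2 untouched libraries that stood apart. At 300 min the share was 4.47%, 6.40% and 4.29% in the 3 Mock libraries, the second of which is the library that stood apart. It was 3.16%, 1.97% and 1.85% after flg22, and 2.79%, 3.11% and 3.15% after Ed. After flg22+Ed it was 1.18%, 1.18% and 0.876%, lower than in every other library at that time. None of the elicitor groups overlapped Mock, but 3 libraries against 3 cannot give a two-sided exact permutation p below 0.1, and adjusted over the 100 comparisons of this kind it was 0.196.

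**Figure D1:**
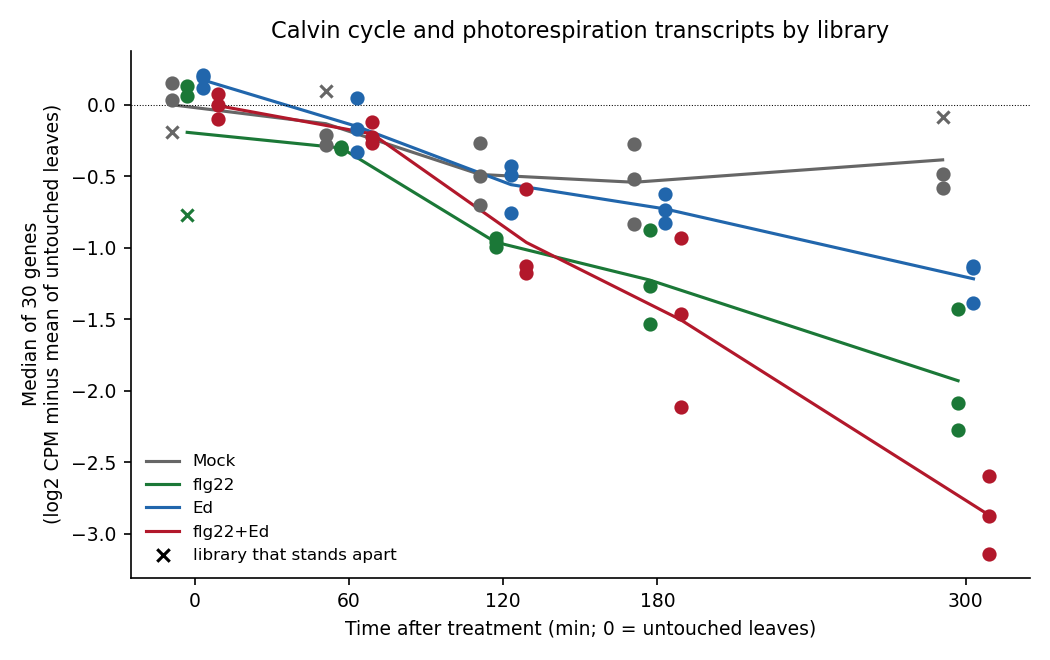
Median over the 30 tested genes of log2 CPM minus the mean of the 12 untouched libraries (vertical axis) against time after treatment in min (horizontal axis, shifted slightly by treatment; 0 min is untouched leaves carrying a treatment label); points are libraries, crosses the 4 libraries that stand apart, lines the means of 3. The 3 flg22+Ed libraries at 300 min lie between -3.14 and -2.59, below all others.

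Mock infiltration itself was accompanied by lower levels of some of these genes. Against the 12 untouched libraries, 7 of the 30 fell at 120 min, where 6.92% of all genes tested were lower, and 12 fell at 180 min, where 5.58% were. FBA1 (AT2G21330), a chloroplast fructose bisphosphate aldolase, fell by 1.09 ± 0.318 (adjusted p = 0.0115) at the first of these times, and by 1.41 ± 0.326 (adjusted p = 0.00251) at the later one, or by 1.29 and 1.59 without the 4 libraries. For CP12-2 (AT3G62410) the falls were 0.96 ± 0.276 (adjusted p = 0.0102) and then 1.2 ± 0.280 (adjusted p = 0.00279), or 1.12 and 1.35 without them. GLDP2 (AT2G26080), a P protein of mitochondrial glycine decarboxylase, fell by 1.27 ± 0.295 at 180 min (adjusted p = 0.00255), or by 1.43 without them. At 300 min 1 gene passed, FBA2 (AT4G38970), the other chloroplast aldolase described here, where 0.453% of all genes were lower. Without the 4 libraries the counts were 6, 20, 19 and 16 at 60, 120, 180 and 300 min, against backgrounds of 14.5%, 14.3%, 11.6% and 13.4% of all genes. With the experiment as a block they were 0, 13, 16 and 2. Leaving out 1 library moved the counts too. At 120 min 4 and 0 genes were left without Mock replicate 2 or 3, and 13 without flg22 replicate 2 at 0 min. At 180 min 4 and 5 were left without Mock replicate 2 or 3. At 300 min 13 passed without Mock replicate 2 at that time, 4 without Mock replicate 2 at 0 min, 10 without flg22 replicate 2 at 0 min, and 0 without any 1 of the other 12 libraries compared. Without experiment 1, 2 or 3 as a whole, 3 passed at 60 min for experiment 2, 1 and 0 at 120 min for experiments 1 and 3, 2 and 0 at 180 min for the same, and 0, 14 and 0 at 300 min. With all libraries 0 passed at 60 min, also at an unadjusted p under 0.05 and by DESeq2 and limma-voom (0.728% of all genes lower). Infiltration and time of day cannot be told apart here, since untouched leaves were taken at 0 min.

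At 60 min none of the 30 genes differed from Mock under any elicitor (backgrounds of 3.39% of all genes lower under flg22, 0.00597% changed in either direction under Ed and 2.08% lower under flg22+Ed). At an unadjusted p under 0.05, 2, 0 and 1 were lower, with no share of all genes given at that threshold. DESeq2 and limma-voom called 0. At 120 min 3 genes fell under flg22, where 2.8% of all genes did. PRK (AT1G32060), phosphoribulokinase, which makes the CO2 acceptor, stood at 1340, 1190 and 877 CPM in Mock and at 525, 564 and 497 CPM under flg22, a fall of 1.1 ± 0.272 (adjusted p = 0.00532). The groups did not overlap. GLDP2 fell by 1.02 ± 0.344 (adjusted p = 0.0489), and GOX2 (AT3G14415), a peroxisomal glycolate oxidase, by 0.79 ± 0.196 (adjusted p = 0.00547). With the experiment as a block, and also without the 4 libraries, 5 genes fell (5.77% of all genes in the latter), and 0 passed without Mock replicate 1 at 120 min or without experiment 1 as a whole.

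Under flg22+Ed at 120 min 6 genes fell, where 4.98% of all genes did: CP12-2, GLDP2, PRK, AGT, GOX2 and CP12-1. CP12-2 fell by 1.19 ± 0.330 (adjusted p = 0.0104), from 516, 453 and 463 CPM in Mock to 301, 161 and 165 CPM. All 3 treated libraries were below all 3 Mock libraries. PRK fell by 0.90 ± 0.270 (adjusted p = 0.0184), and AGT (AT2G13360), the peroxisomal serine:glyoxylate aminotransferase, by 0.88 ± 0.266 (adjusted p = 0.0190). CP12-1 (AT2G47400) fell the least, by 0.60 ± 0.214 (adjusted p = 0.0484). The count was 12 with the experiment as a block and 13 without the 4 libraries (9.26% of all genes). It was 1 and 3 without Mock replicate 1 or 2 at 120 min, 13, 1 and 0 without flg22+Ed replicate 1, 2 or 3, and 2 and 0 without experiment 2 or 3 as a whole. Under Ed alone at 120 min 0 genes passed, as with DESeq2, limma-voom and an unadjusted p under 0.05 (0.0835% of all genes changed in either direction), and the changes ran from -0.61 to 0.13. Between flg22+Ed and Ed at 120 min 0 passed with all libraries, where 1.13% of all genes were lower, and 1 without the 4 (3.42% of all genes). DESeq2 and limma-voom called 0. At an unadjusted p under 0.05, 8 were lower, with no share of all genes given at that threshold. Without flg22+Ed replicate 1 at 120 min 2 passed.

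At 180 min flg22 lowered 13 of the 30 genes, with a median change of -0.68 against -0.06 over all genes, of which 8.17% were lower. By role these were 5 of 12 Calvin cycle enzymes, 5 of 11 photorespiration enzymes, Rubisco activase, 1 of 2 CP12 proteins and 1 of 4 Rubisco small subunits. RBCS1B (AT5G38430), a Rubisco small subunit, stood at 1340, 987 and 1690 CPM in Mock and at 646, 474 and 492 CPM under flg22, a fall of 1.32 ± 0.415 (adjusted p = 0.0173). CP12-2 fell by 1.01 ± 0.329 (adjusted p = 0.0221), PRK by 0.89 ± 0.270 (adjusted p = 0.0137), and HPR1 (AT1G68010), the peroxisomal hydroxypyruvate reductase, by 0.77 ± 0.278 (adjusted p = 0.0383). The smallest falls that passed were those of RCA (AT2G39730), Rubisco activase, by 0.73 ± 0.269 (adjusted p = 0.0447), of HCEF1 (AT3G54050), the chloroplast fructose bisphosphatase, by 0.69 ± 0.215 (adjusted p = 0.0172), and of GAPB (AT1G42970), a subunit of chloroplast glyceraldehyde phosphate dehydrogenase, by 0.67 ± 0.231 (adjusted p = 0.0314). Not past the threshold were SBPASE (AT3G55800), sedoheptulose bisphosphatase, at -0.77 ± 0.299 (adjusted p = 0.0589, or 0.0273 with the experiment as a block and 0.0349 without the 4 libraries), and the glycine decarboxylase P protein GLDP1 (AT4G33010) at -0.64 ± 0.315 (adjusted p = 0.144). RBCS1A (AT1G67090), another small subunit, was at -0.33 ± 0.223 (adjusted p = 0.310), SHM1 (AT4G37930), mitochondrial serine hydroxymethyltransferase, at -0.43 ± 0.386 (adjusted p = 0.454), and GLYK (AT1G80380), the chloroplast glycerate kinase, which phosphorylates glycerate to phosphoglycerate, at -0.36 ± 0.179 (adjusted p = 0.152). The count of 13 was 2 without Mock replicate 1 at 180 min, 1 without flg22 replicate 2 or 3, and 4 and 0 without experiment 1 or 3 as a whole.

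Ed alone lowered none of the 30 genes at 180 min, with changes from -0.46 to 0.09 and 0 genes at an unadjusted p under 0.05 or by DESeq2 and limma-voom (0.00597% of all genes were lower and 4.03% changed in either direction). The 95% interval reached 0.532 to either side of the change in the median gene, without adjustment over genes. Smaller changes in such a gene could not be told from 0, and larger ones could still miss the adjusted threshold. Under flg22+Ed 23 genes fell at 180 min, with a median of -0.89 against -0.06 over all genes and 14.5% of all genes lower. RBCS1B fell by 1.5 ± 0.417 (adjusted p = 0.00470), from the Mock values above to 496, 422 and 510 CPM. CP12-2 fell by 1.32 ± 0.332 (adjusted p = 0.00179) and HPR1 by 1.23 ± 0.280 (adjusted p = 0.000670). HPR1 stood at 875, 601 and 558 CPM in Mock and at 429, 137 and 300 CPM under flg22+Ed, with no overlap. PRK fell by 1.17 ± 0.272, SBPASE by 1.00 ± 0.301, RCA by 0.89 ± 0.270, GAPB by 0.82 ± 0.232 and GLDP1 by 0.81 ± 0.315 (adjusted p from 0.000826 to 0.0423). The smallest falls that passed were those of GDCH (AT2G35370), the H protein of glycine decarboxylase, by 0.65 ± 0.208, of FBA2 by 0.60 ± 0.225 and of PGK1 (AT3G12780), chloroplast phosphoglycerate kinase, by 0.49 ± 0.175. SHM1, RBCS1A and GLYK did not pass, at -0.67, -0.46 and -0.30 (adjusted p = 0.192, 0.112 and 0.205). The count of 23 was 12 without Mock replicate 1 or flg22+Ed replicate 2 at 180 min, and 15, 15 and 8 without experiment 1, 2 or 3 as a whole. That flg22+Ed replicate 2 had the fewest counts of all libraries, 1.46 M. The 31 genes made up 1.75% of its counts, against 3.83% and 2.79% in replicates 1 and 3.

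With all libraries, most or all of the genes had fallen by 300 min under each elicitor, but for Ed this depended on which libraries were kept. Under flg22 29 of 30 fell (median -1.48, all genes -0.05), where 20.9% of all genes were lower. Under Ed 21 fell (median -0.80, all genes -0.08), where 9.46% of all genes were lower, and under flg22+Ed all 30 tested fell (median -2.50, all genes -0.08), where 30.5% were. Without the 4 libraries the counts were 28, 15 and 30 and the medians -1.15, -0.67 and -2.26, against 19.5%, 7.98% and 29.8% of all genes. Leaving out only the library labelled Mock 300 min replicate 2 left 4 genes under Ed, and leaving out experiment 1 or 2 as a whole left 10 and 7. None of the 30 rose. The gene not past the threshold under flg22 was SHM1 (-0.87 ± 0.388, adjusted p = 0.0701), which passed with the experiment as a block (adjusted p = 0.00855). RPE, ribulose phosphate epimerase, named after its values were seen, did not pass under flg22 without the 4 libraries (adjusted p = 0.0637).

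**Figure D2:**
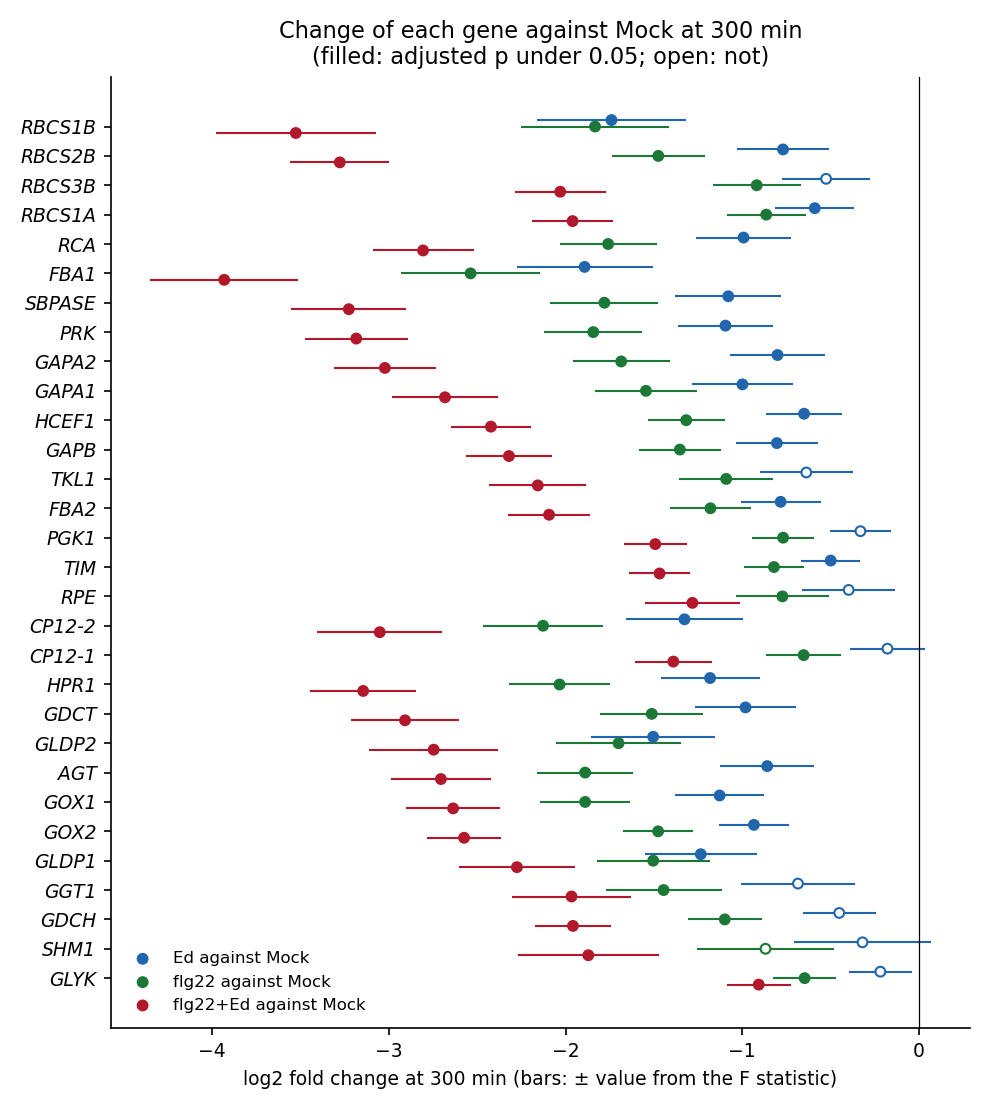
Change against Mock at 300 min of each tested gene (horizontal axis, log2 fold change; genes grouped by role from top to bottom: Rubisco small subunits, activase, Calvin cycle enzymes, CP12, photorespiration enzymes). Points are the fitted values from 3 libraries a group, bars the ± values, and open points did not pass; for all 30 genes the flg22+Ed value lies lowest, from -3.93 for FBA1 to -0.91 for GLYK.

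Markers of other leaf cell types were measured beside these falls, and their part in them was not tested. Of 5 guard cell markers, 0, 0 and 2 were lower at 300 min under flg22, Ed and flg22+Ed, and their summed level was 517 to 583 CPM in Mock, 292 to 657 under flg22, 500 to 505 under Ed and 223 to 285 under flg22+Ed. Of 6 epidermis markers, 5 of them tested, 1, 4 and 4 were lower, with sums of 1900 to 2700 CPM in Mock, 1870 to 2300 under flg22, 771 to 1610 under Ed and 1310 to 1500 under flg22+Ed, where 1 marker was at 0. Over all genes 20.9%, 9.46% and 30.5% were lower in these comparisons. Of 7 phloem markers, 1, 3 and 2 were lower, with sums of 778 to 865 CPM in Mock, 659 to 723 under flg22, 530 to 691 under Ed and 582 to 755 under flg22+Ed. No defining marker was at 0 in the other groups at 300 min.

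The Rubisco small subunits, which pair with the chloroplast-encoded large subunit, fell by a median of 1.2 under flg22, 0.68 under Ed and 2.65 under flg22+Ed at 300 min, where 4, 3 and 4 of the 4 passed (4, 1 and 4 without the 4 libraries that stood apart). Of all genes 20.9%, 9.46% and 30.5% were lower (19.5%, 7.98% and 29.8% without those libraries). RBCS1A stood at 9020, 11500 and 10700 CPM in Mock, where untouched leaves had 7500 to 15200 (median 13800), or 11700 to 15200 without the 2 untouched libraries that stood apart. It stood at 8080, 4390 and 4680 CPM under flg22, 6600, 6340 and 7820 under Ed, and 2850, 3090 and 2080 under flg22+Ed. No treated library reached the lowest Mock library, and the flg22+Ed libraries were the lowest. The changes were -0.86 ± 0.224 (adjusted p = 0.00184), -0.59 ± 0.223 (adjusted p = 0.0472, or 0.104 without the 4 libraries) and -1.96 ± 0.230 (adjusted p = 1.59e-09), or -0.74, -0.52 and -1.87 without the 4 libraries.

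RBCS1B stood at 692, 2260 and 897 CPM in Mock and at 121, 148 and 65.7 CPM under flg22+Ed, 11.5-fold lower (-3.53 ± 0.451, adjusted p = 1.03e-08, or -2.82 without the 4 libraries). Its highest Mock value is that of the library that stood apart. Under Ed it stood at 306, 389 and 458 CPM, a fall of 1.74 ± 0.420 (adjusted p = 0.00161), or of 1.05 without the 4 libraries (adjusted p = 0.0129). RBCS2B (AT5G38420) was at 2570, 3350 and 2880 CPM in Mock and at 330, 360 and 217 CPM under flg22+Ed, 9.69-fold lower (-3.28 ± 0.281, adjusted p = 1.45e-12), with little change when the 4 libraries were left out (-3.16). RBCS3B (AT5G38410) completes the group, with 3420, 3880 and 5040 CPM in Mock and 1090, 1280 and 652 CPM under flg22+Ed.

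RCA was at 4180, 6570 and 3280 CPM in Mock at 300 min and at 3010 to 8320 CPM in untouched leaves (median 7180), or 6520 to 8320 CPM without the 2 untouched libraries that stood apart. Under flg22 it was at 1840, 1260 and 1040 CPM (-1.76 ± 0.275, adjusted p = 2.22e-06), under Ed at 2150, 2600 and 2290 CPM (-0.99 ± 0.270, adjusted p = 0.00508), and under flg22+Ed at 769, 700 and 537 CPM (-2.81 ± 0.286, adjusted p = 6.29e-11). The 4 groups did not overlap one another. Leaving out the 4 libraries that stood apart, the changes were -1.39, -0.67 and -2.46, and all 3 passed.

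Among the Calvin cycle enzymes the medians were -1.33, -0.79 and -2.37, and 12, 9 and 12 of the 12 fell under flg22, Ed and flg22+Ed (11, 5 and 12 without the 4 libraries). The shares of all genes that were lower were 20.9%, 9.46% and 30.5%, or 19.5%, 7.98% and 29.8% without them. With all libraries FBA1 had the largest fall of the 30 genes in each of the 3 comparisons, and it moved most when the 4 libraries were left out. Mock was at 812, 3190 and 788 CPM, flg22 at 352, 272 and 202, Ed at 355, 479 and 458, and flg22+Ed at 121, 108 and 85.6. The changes were -2.54 ± 0.394, -1.89 ± 0.385 and -3.93 ± 0.420 (adjusted p = 1.98e-06, 0.000219 and 1.78e-10), the last a 15.2-fold fall. Without the 4 libraries they were -1.5, -0.90 and -2.92 (adjusted p = 8.78e-07, 0.00194 and 9.80e-13), and FBA1 then had the largest fall in none of the 3. The largest falls were then those of AGT under flg22 (-1.80), RBCS1B under Ed (-1.05) and RBCS2B under flg22+Ed (-3.16).

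PRK was at 1370, 1820 and 1380 CPM in Mock, at 602, 306 and 367 under flg22, at 559, 741 and 842 under Ed, and at 216, 151 and 137 under flg22+Ed. All 3 elicitor groups lay below Mock, and flg22 and Ed overlapped. The changes were -1.84 ± 0.277, -1.1 ± 0.271 and -3.18 ± 0.292 (adjusted p = 1.07e-06, 0.00213 and 6.10e-12), or -1.65, -0.95 and -3.02 without the 4 libraries. SBPASE, which with PRK serves only the rebuilding of the acceptor, was at 609, 910 and 497 CPM in Mock, at 281, 168 and 137 under flg22, at 292, 352 and 311 under Ed, and at 86.2, 67.8 and 61.3 under flg22+Ed. Its changes were -1.78 ± 0.306, -1.08 ± 0.301 and -3.23 ± 0.325 (adjusted p = 1.06e-05, 0.00627 and 4.68e-11), or -1.46, -0.80 and -2.93 without them. GAPB, of the reducing step, was at 1480, 2030 and 1370 CPM in Mock, at 872, 560 and 476 under flg22, at 896, 983 and 915 under Ed, and at 389, 307 and 280 under flg22+Ed. It changed by -1.35 ± 0.234, -0.80 ± 0.232 and -2.32 ± 0.242 (adjusted p = 1.16e-05, 0.00822 and 1.04e-10), or by -1.12, -0.62 and -2.11 without them. Smaller falls were seen in the other enzymes named here: PGK1 changed by -0.77 ± 0.175 under flg22 (adjusted p = 0.000461, or -0.86 without the 4 libraries), TIM (AT2G21170), chloroplast triose phosphate isomerase, by -0.50 ± 0.168 under Ed (adjusted p = 0.0243, or 0.0850 without the 4 libraries), and RPE (AT5G61410) by -1.28 ± 0.267 under flg22+Ed (adjusted p = 6.65e-05, or -1.21 without them). HCEF1 fell by 0.65 ± 0.215 under Ed (adjusted p = 0.0223, or by 0.66 without them).

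The CP12 genes are regulators rather than enzymes of the cycle. CP12-2 was at 393, 844 and 358 CPM in Mock, at 163, 107 and 95.7 under flg22, at 180, 253 and 203 under Ed, and at 97.0, 34.1 and 60.8 under flg22+Ed. It changed by -2.13 ± 0.340, -1.33 ± 0.331 and -3.05 ± 0.353 (adjusted p = 3.12e-06, 0.00229 and 1.15e-09), or by -1.58, -0.83 and -2.53 without the 4 libraries. CP12-1 was at 2000, 1330 and 2040 CPM in Mock, at 1330, 1030 and 1050 under flg22, at 1390, 1740 and 1620 under Ed, and at 839, 656 and 556 under flg22+Ed. Its libraries overlapped Mock under flg22 (-0.65 ± 0.214, adjusted p = 0.0132) and under Ed, and lay below Mock under flg22+Ed (-1.39 ± 0.218, adjusted p = 6.07e-07). With the 4 libraries left out, the CP12-1 changes were -0.78 under flg22 and -1.55 under flg22+Ed.

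The photorespiration enzymes fell by medians of 1.5, 0.93 and 2.57, with 10, 7 and 11 of the 11 tested past the threshold, with and without the 4 libraries, where 20.9%, 9.46% and 30.5% of all genes were lower (19.5%, 7.98% and 29.8% without the 4). HPR1 was at 820, 1340 and 793 CPM in Mock, at 312, 206 and 202 under flg22, at 358, 502 and 440 under Ed, and at 151, 82.5 and 99.6 under flg22+Ed, and the 4 groups did not overlap. It changed by -2.03 ± 0.287, -1.18 ± 0.280 and -3.15 ± 0.300 (adjusted p = 3.33e-07, 0.00133 and 1.38e-11), or by -1.71, -0.90 and -2.84 without the 4 libraries. GLDP1 was at 1120, 1850 and 750 CPM in Mock, at 527, 417 and 366 under flg22, at 523, 557 and 499 under Ed, and at 293, 260 and 215 under flg22+Ed. The flg22 and Ed libraries overlapped, and both lay below Mock. Its changes were -1.5 ± 0.320, -1.24 ± 0.318 and -2.28 ± 0.329 (adjusted p = 0.000208, 0.00309 and 1.27e-07), or -1.05, -0.83 and -1.85 without them. GLDP2 fell by 1.5 ± 0.349 under Ed (adjusted p = 0.00105), or by 0.86 without the 4 libraries (adjusted p = 0.0226).

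With all libraries SHM1 and GLYK had the smallest changes of the 11 in each comparison with Mock at 300 min. Without the 4 libraries this held under flg22 but not in the other two: GGT1 was at -0.33 under Ed and -1.59 under flg22+Ed, and GLDP1 at -1.85 under flg22+Ed, each a smaller change than that of SHM1. SHM1 makes serine from glycine and a carbon unit that glycine decarboxylase releases from another glycine. It was at 1420, 1030 and 1090 CPM in Mock, at 910, 617 and 408 under flg22, at 1020, 1030 and 783 under Ed, and at 358, 363 and 244 under flg22+Ed. The Ed change did not pass (-0.32 ± 0.386, adjusted p = 0.595), with 2 Ed libraries near the lowest Mock library and the third below it, and the flg22+Ed libraries lay below all others (-1.87 ± 0.399, adjusted p = 9.19e-05). These changes were -0.41 and -1.95 without the 4 libraries. GLYK was at 177, 141 and 122 CPM in Mock, at 108, 85.7 and 87.7 under flg22, at 122, 141 and 115 under Ed, and at 85.2, 79.4 and 70.2 under flg22+Ed. It changed by -0.65 ± 0.179 (adjusted p = 0.00345), -0.22 ± 0.178 (adjusted p = 0.404) and -0.91 ± 0.180 (adjusted p = 3.48e-05), or by -0.64, -0.26 and -0.92 without them.

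**Figure D3:**
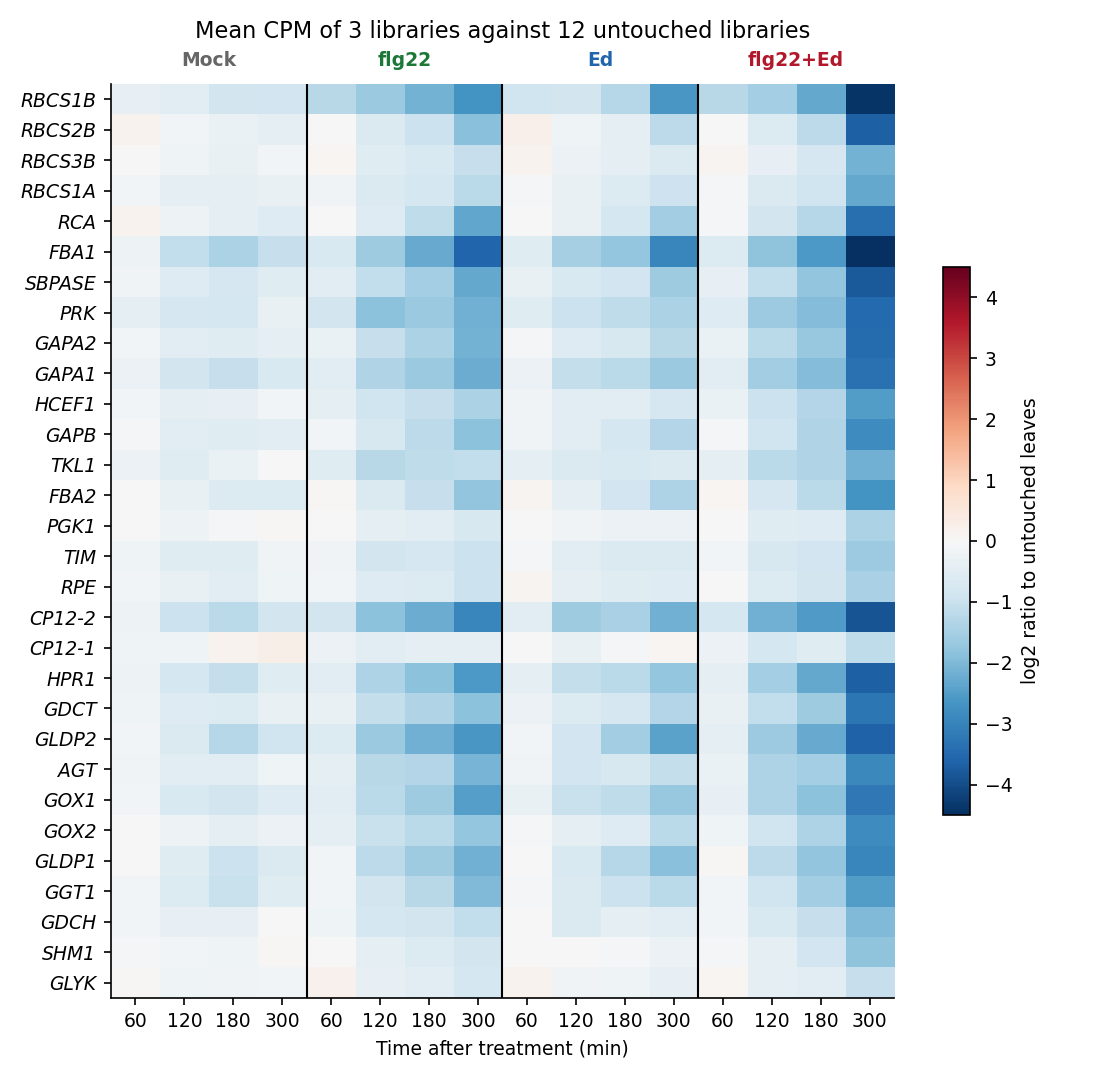
Mean CPM of each tested gene in the 3 libraries of a group as a log2 ratio to its mean in the 12 untouched libraries (colour, blue lower and red higher), for Mock, flg22, Ed and flg22+Ed at 60, 120, 180 and 300 min (columns); the libraries that stand apart are included. The flg22+Ed column at 300 min is the darkest, with FBA1 and RBCS1B deepest in it and CP12-1 and GLYK palest.

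Adding Ed to flg22 made a difference at 300 min and none that could be seen at 180 min. At 180 min 0 genes differed between flg22+Ed and flg22 (0 also at an unadjusted p under 0.05 and by DESeq2 and limma-voom, 0.483% of all genes changed in either direction), with changes from -0.45 to 0.06. At 300 min 24 genes were lower under flg22+Ed (median -1.05, all genes -0.06), where 7.21% of all genes were. Deepest were RBCS2B at -1.80 ± 0.265 (adjusted p = 5.59e-06), RBCS1B at -1.69 ± 0.421 (adjusted p = 0.00438) and SBPASE at -1.45 ± 0.306 (adjusted p = 0.000886). The smallest that passed were CP12-1 at -0.74 ± 0.215, PGK1 at -0.72 ± 0.175 and TIM at -0.65 ± 0.168. The count fell to 8 without flg22 replicate 1 at 300 min, the library of its group with the highest levels of RBCS1A, PRK and HPR1, to 14 without flg22+Ed replicate 3, and to 8 without all libraries of experiment 1 or of experiment 3.

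Adding flg22 to Ed lowered 12 genes at 180 min (median -0.70, all genes -0.04), where 5.66% of all genes were lower. HPR1 fell by 1.08 ± 0.280 (adjusted p = 0.00625), CP12-2 by 1.06 ± 0.330 (adjusted p = 0.0227) and GAPA2 (AT1G12900), an A subunit of chloroplast glyceraldehyde phosphate dehydrogenase, by 0.96 ± 0.269 (adjusted p = 0.0109). The smallest that passed were RBCS2B, GOX1 (AT3G14420) and GDCH, at -0.74, -0.70 and -0.59. Leaving out Ed replicate 1, 2 or 3 at 180 min left 6, 5 and 5 genes, and leaving out flg22+Ed replicate 1, 2 or 3 left 19, 1 and 4. Of these, flg22+Ed replicate 2 was the library with the fewest counts. Without experiment 2 or 3 as a whole 1 and 0 were left. At 300 min all 30 were lower than under Ed (median -1.53, all genes -0.08), where 18.8% of all genes were. RBCS2B led at -2.51 ± 0.272 (adjusted p = 2.26e-09), with GAPA2 at -2.22 ± 0.279 (adjusted p = 4.72e-08) and SBPASE at -2.15 ± 0.312 (adjusted p = 7.29e-07), and TIM, RPE and GLYK closed the range at -0.97, -0.88 and -0.69.

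Set directly against flg22 at 300 min, Ed left 9 genes higher (median 0.55, all genes 0.05), where 9.91% of all genes were. AGT was at 1.03 ± 0.266 (adjusted p = 0.00455), GAPA2 at 0.88 ± 0.269 (adjusted p = 0.0169) and HPR1 at 0.85 ± 0.278 (adjusted p = 0.0270), and the smallest that passed were HCEF1 at 0.67, GDCH at 0.65 and GOX2 at 0.54. The count was 15 with the experiment as a block, 12 without the 4 libraries (12.1% of all genes) and 2 when libraries were scaled by their totals alone. It was 17 without flg22 replicate 1 at 300 min, 1 without flg22 replicate 2 or 3 or Ed replicate 2, 2 without Ed replicate 3, and 0 without all libraries of experiment 2 or of experiment 3.

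The effect of both elicitors was compared with the sum of their separate effects on the log2 scale. At 180 min 0 genes departed from the sum (median 0.02, all genes -0.03; 0 at an unadjusted p under 0.05 and by DESeq2 and limma-voom; 0.00597% of all genes lower). At 300 min 0 did (median -0.15, all genes -0.12; 0 by DESeq2 and limma-voom), where 1.43% of all genes lay below the sum, and 1 had an unadjusted p under 0.05, RBCS2B at -1.03 ± 0.365 (adjusted p = 0.171, named after its values were seen). Without the 4 libraries the median was -0.40 and again 0 passed (1.38% of all genes). With the experiment also as a block, 1 passed. The 95% interval reached 0.753 to either side in the median gene, without adjustment over genes. Smaller departures in such a gene could not be told from the sum, and larger ones could still miss the adjusted threshold, as that of RBCS2B did.

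The change from 180 to 300 min was tested as a difference of differences from Mock. Under flg22+Ed the effect was lower at 300 than at 180 min for 24 genes (median -1.59, all genes -0.09), where 4.96% of all genes were, and for 21 without the 4 libraries (5.83% of all genes), 13 without experiment 1 as a whole and 0 without experiment 3. FBA1 was at -2.78 ± 0.538 (adjusted p = 0.00135, or -1.77 without the 4 libraries), RBCS2B at -2.41 ± 0.369 (adjusted p = 0.000214, or -2.29 without them) and SBPASE at -2.22 ± 0.427 (adjusted p = 0.00132, or -1.92 without them), while GDCH, TIM and PGK1 were at -1.31, -1.12 and -1.0. For flg22 (median -0.75) and Ed (median -0.61) 0 genes passed, also by DESeq2 and limma-voom, where 0.0597% of all genes changed in either direction in each. At an unadjusted p under 0.05 there were 18 and 11, with no share of all genes given at that threshold. Whether this change over time differed between the elicitors was not tested.

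Within families, the shares of the copies in the counts were also compared. RBCS2B held 15.7% ± 0.846 (SD, n = 3) of the counts of the 4 small subunit genes in Mock at 300 min, 11.2% ± 1.17 under flg22, 14.6% ± 0.982 under Ed and 7.37% ± 0.153 under flg22+Ed. RBCS1A held 55.7% ± 1.51, 61.7% ± 0.915, 58.3% ± 0.763 and 65.8% ± 2.90 of them in the same groups. CP12-2 held 23.4% ± 13.4 of the CP12-1 and CP12-2 counts in Mock, or 15.7% ± 1.05 (SD, n = 2) without the library that stood apart, and 8.39% ± 2.99 under flg22+Ed. FBA1 held 33.1% ± 10.3 of the aldolase counts in Mock, or 27.2% ± 0.523 (SD, n = 2) without that library, and 14.1% ± 0.419 under flg22+Ed. GOX1 held 56.2% ± 6.46 of the glycolate oxidase counts in Mock and 55.9% ± 4.21 under flg22+Ed. The flg22+Ed and Mock libraries did not overlap for the first 4 of these shares, with an exact permutation p of 0.1, the smallest possible with 3 against 3 (0.196 adjusted over 100 comparisons).

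**Figure D4:**
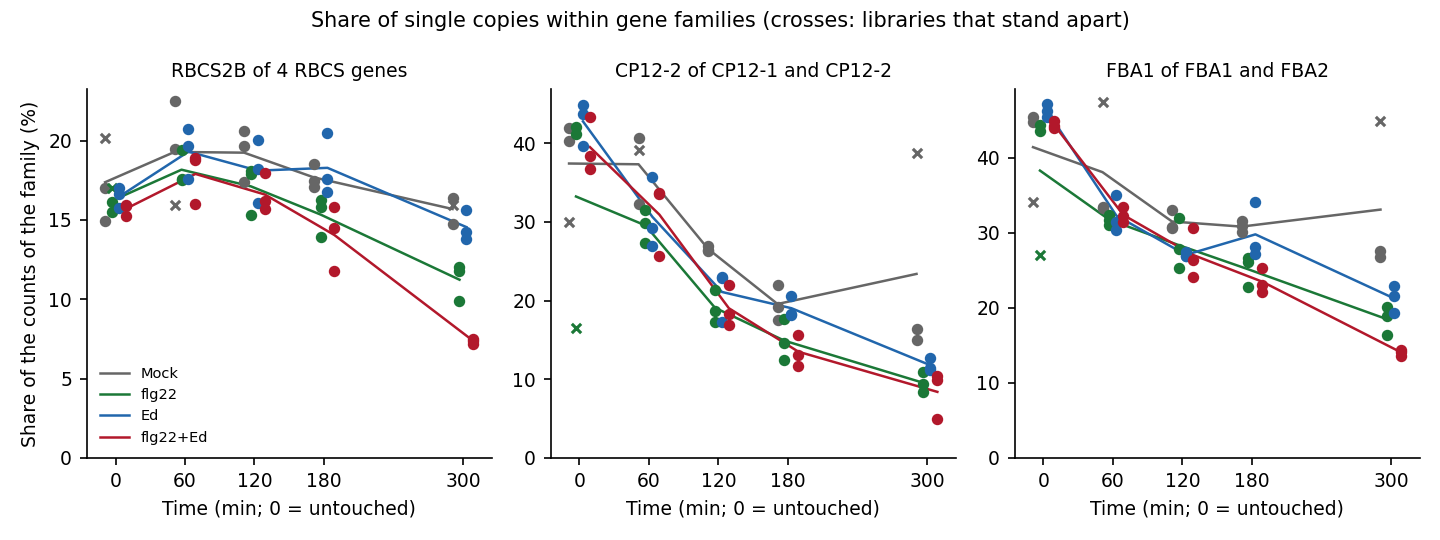
Share of a family's counts (vertical axis, %) held by RBCS2B among 4 small subunit genes, CP12-2 among 2 CP12 genes and FBA1 among 2 aldolase genes, against time in min (0 is untouched leaves); points are libraries, crosses the 4 that stand apart, lines the means of 3. The 3 flg22+Ed libraries at 300 min are the lowest for RBCS2B and FBA1, and the mean CP12-2 share at 180 min, from 13.5% to 19.6%, is below the 38.2% of untouched leaves in every treatment, Mock included.

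Tags from the 3′ ends of close copies may be shared between them, so the families were also summed before testing. The 4 small subunit genes together changed by -1.01 ± 0.231 under flg22 at 300 min (adjusted p = 0.000478), by -0.66 ± 0.229 under Ed (adjusted p = 0.0303, or 0.0788 without the 4 libraries) and by -2.19 ± 0.239 under flg22+Ed (adjusted p = 2.65e-10). GOX1 and GOX2 together changed by -1.70, -1.04 and -2.61, GAPA1 and GAPA2 by -1.61, -0.90 and -2.83, GLDP1 and GLDP2 by -1.54, -1.29 and -2.36, and FBA1 and FBA2 by -1.55, -1.1 and -2.54. Each of these sums fell in all 3 comparisons, though the Ed fall of GAPA1 and GAPA2 did not pass without the 4 libraries (adjusted p = 0.0694). Without them FBA1 and FBA2 together changed by -0.95, -0.55 and -1.97, and GLDP1 and GLDP2 by -1.05, -0.84 and -1.90. GOX1 and GOX2 then changed by -1.43, -0.82 and -2.37, and GAPA1 and GAPA2 by -1.32, -0.66 and -2.57. The 4 small subunit genes then changed by -0.88, -0.57 and -2.09.

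Across all 60 libraries, which share treatments and depth, the genes followed one another closely. HPR1, SBPASE and GDCT (AT1G11860), the T protein of glycine decarboxylase, followed the median of the other tested genes most closely (Pearson r = 0.983, 0.980 and 0.979 on log2 CPM), and SHM1 (0.747) and CP12-1 (0.632) least. These are descriptions, with no test.

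Other genes of the same pathways did not all follow. Of 16 further Calvin cycle genes, 9 fell and 3 rose under flg22 at 300 min, 3 fell under Ed, and 10 fell and 3 rose under flg22+Ed, with medians of -1.05, -0.35 and -1.88. Of all genes 20.9%, 9.46% and 30.5% were lower in these comparisons and 19.2%, 14.7% and 27.9% higher. With the 4 libraries left out, 10, 5 and 10 fell and 3, 0 and 4 rose. CFBP2, a chloroplast fructose bisphosphatase, was lowest under flg22+Ed at -2.76 ± 0.415 (adjusted p = 2.88e-07). TKL2, another transketolase, rose by 3.47 ± 0.395 (adjusted p = 7.65e-10) and CP12-3, another CP12, by 1.86 ± 0.303 (adjusted p = 1.35e-06). Under flg22 alone they rose by 3.36 ± 0.393 and 2.09 ± 0.302 (adjusted p = 6.55e-09 and 5.27e-07).

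Of 20 further photorespiration genes tested, of 22 listed, 9, 5 and 15 fell under flg22, Ed and flg22+Ed at 300 min and 1 rose in each, with medians of -0.47, -0.54 and -1.09, against the same shares of all genes (20.9%, 9.46% and 30.5% lower, 19.2%, 14.7% and 27.9% higher). With those libraries left out, 10, 4 and 15 fell and 1 rose in each. CAT2, the leaf peroxisomal catalase, fell by 2.44 ± 0.513, 2.36 ± 0.512 and 3.20 ± 0.530 (adjusted p = 0.000182, 0.000489 and 1.77e-06), or by 0.85, 0.82 and 1.64 without the 4 libraries. GLU1, ferredoxin-dependent glutamate synthase, takes part in reassimilating the ammonia released by glycine decarboxylase. It fell by 2.87 ± 0.540 under flg22+Ed (adjusted p = 1.48e-05), or by 2.59 without the 4 libraries. The gene that rose was mtLPD2, a mitochondrial lipoamide dehydrogenase shared by several complexes, by 1.39 ± 0.247, 1.59 ± 0.248 and 1.93 ± 0.250 (adjusted p = 1.75e-05, 3.93e-06 and 1.34e-08).

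The light reactions were set beside these pathways. Of 40 nuclear photosystem and antenna genes, 37 fell under flg22, 7 under Ed and 40 under flg22+Ed at 300 min, with medians of -1.09, -0.39 and -1.97, where 20.9%, 9.46% and 30.5% of all genes were lower. The numbers that fell were 39, 7 and 39 without the 4 libraries. The antenna gene LHCB2.3 was lowest under flg22 and flg22+Ed, at -2.63 ± 0.422 and -3.82 ± 0.445 (adjusted p = 3.42e-06 and 1.30e-09). Under Ed, with all libraries, the lowest that passed was PSBS, needed for heat dissipation in photosystem II, at -0.85 ± 0.224 (adjusted p = 0.00373), or -0.57 without the 4 libraries (adjusted p = 0.0388).

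**Figure D5:**
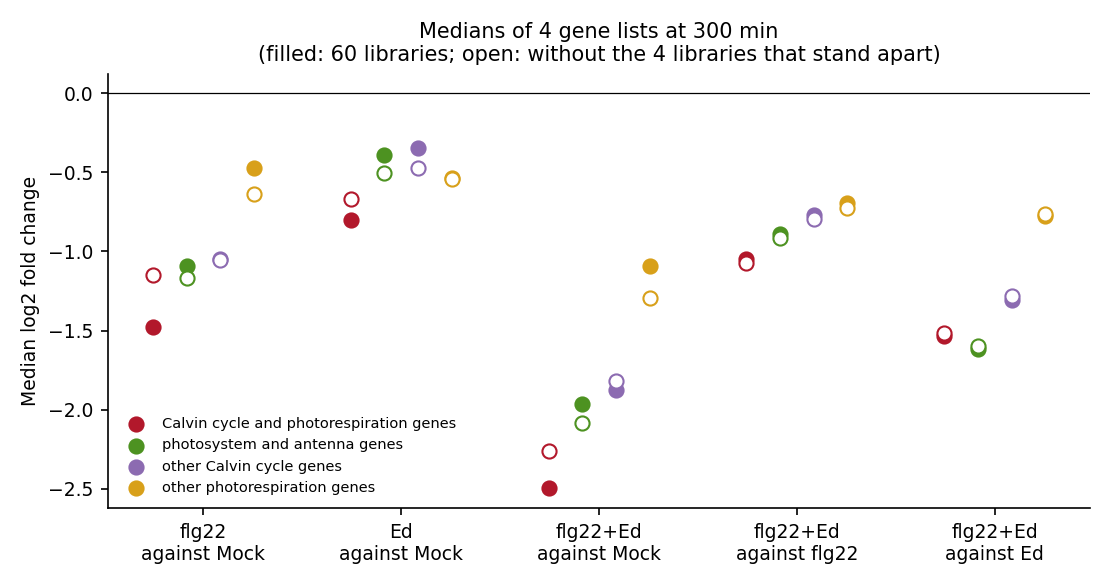
Median log2 fold change at 300 min (vertical axis) of 4 gene lists in 5 comparisons (horizontal axis); filled points use all 60 libraries, open points leave out the 4 libraries that stand apart. The genes described here have medians of -1.48, -0.80 and -2.50 against Mock under flg22, Ed and flg22+Ed, and the photosystem and antenna genes -1.09, -0.39 and -1.97.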

How the data were processed

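Leaf RNA of 60 samples was sequenced as Smart-3SEQ 3′ tags with molecular identifiers, per the labels' protocols. The authors deposited raw read counts per gene, 1 column a sample. The submitters' processing notes name bcl2fastq 2.17.1.14, STAR 2.4.2a and TAIR10. For the counting tool, its strand setting and the handling of identifiers, the sources name nothing (not given in the sources used here). Reads of overlapping genes may therefore be mixed. The floor of 3 counts covers counting error only, while the intervals of fitted changes carry the spread between libraries. Gene names came from RefSeq (TAIR10.1) by identifier, matching 24888 of 25036, and no coordinates or sequences were used.

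Genes were filtered with edgeR's filterByExpr, scaled by TMM and tested with edgeR 4.0.16 (R 4.3.3; quasi-likelihood test, 1 mean for each of the 20 groups, 40 residual degrees of freedom, Benjamini-Hochberg over 16763 genes in each comparison, threshold 0.05). All groups shared 1 estimate of the spread. Alternatives were the experiment as a block, DESeq2 1.42.0, limma-voom (limma 3.58.1), other scaling and filters, only the groups compared, and leaving out libraries; the scripts were tested on simulated data. The 4 libraries were set apart after seeing the data, and so were the tests of the difference between 300 and 180 min.

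The genes described and all lists were chosen with earlier results of these data known. Named with statistics are 10 examples of the roles, in comparisons with Mock at 180 and 300 min, and elsewhere the 3 lowest and 3 highest genes that passed (2 and 2 for other pathway genes, of which some are not reported here); the limit to Mock comparisons was set after values were seen. The submitters' design text describes 3 independent experiments numbered as replicates, so equal numbers pair the samples. Across pairs of groups, deviations from the group means correlated by a median of 0.114 for the same number and -0.0672 for different numbers. Deviations sum to 0 within a group, which ties the second value to the first, so it is no separate evidence of pairing. Replicates correlated at Spearman's rho of 0.822 to 0.981 and none were identical.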

Additional observations from a re-analysis of the deposited data

Results flagged for a closer look

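The effect of flg22+Ed against Mock differed between times in a direct test of the difference: it was lower at 300 than at 180 min for 24 of the 30 genes tested (edgeR's quasi-likelihood test, adjusted p under 0.05), where 4.96% of all genes were lower. The count was 21 without the 4 libraries that stand apart, 13 without experiment 1, 0 without experiment 3, and 0 when only the groups compared were fitted. The same test gave 0 genes for flg22 and 0 for Ed, where 0.0597% of all genes changed in either direction in each. At an unadjusted p under 0.05 in that test, 18 and 11 genes were lower and 0 higher. No share of all genes is given at that threshold. Whether this change over time differed between the elicitors was not tested.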

How the results depend on the processing

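Of the 30 genes, the counts past the threshold at 300 min ran from 24 to 30 under flg22, from 30 to 30 under flg22+Ed and from 26 to 30 for flg22+Ed against Ed when libraries or whole experiments were left out, and no alternative moved them by over 1.5 times. With a spread estimated from only the groups compared, fewer samples entered and the counts were 4 (flg22, 180 min), 5 (Ed, 300 min), 1 and 7 (flg22+Ed, 120 and 180 min), 2 (flg22+Ed against Ed, 180 min), 3 (Ed against flg22, 300 min), 11 and 0 (Mock against untouched, 120 and 300 min) and 0 (flg22+Ed, 300 minus 180 min). Without the filter on low counts they were 5 (flg22+Ed against Ed, 180 min), 2 (Ed against flg22, 300 min) and 0 (Mock against untouched, 300 min). Scaling by library totals alone gave 2 for Ed against flg22 and 0 for Mock against untouched at 300 min, and moved the median of all genes by up to 0.222. For Mock against untouched DESeq2 gave 17 at 120 min and 6 at 300 min, and limma-voom, RLE factors and a filter of 10 CPM gave 4, 2 and 2 at 300 min; the cause was not tested.

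With the experiment as a replicate block the counts were 5 (flg22, 120 min), 12 (flg22+Ed, 120 min), 15 (Ed against flg22, 300 min), and 13 and 2 (Mock against untouched, 120 and 300 min), and SBPASE (flg22, 180 min) and SHM1 (flg22, 300 min) passed; no other count moved by over 1.5 times, nor did the call of another of the 10 examples change against Mock at 180 and 300 min. Without the 4 libraries the counts were 5 and 13 (flg22 and flg22+Ed, 120 min), 1 (flg22+Ed against Ed, 120 min) and 6, 20, 19 and 16 (Mock against untouched, 60 to 300 min). With both changes they were 9 and 20 (flg22, 120 and 180 min), 17 (flg22+Ed, 120 min), 5 and 20 (flg22+Ed against Ed, 120 and 180 min), 16 (Ed against flg22), 1 (departure from the sum, 300 min) and 9, 22, 22 and 19 (Mock against untouched). The share of all genes called moves with the setting too. For Mock against untouched at 300 min, 0.453% of all genes were lower with all libraries and 13.4% without the 4. That share is not given, here or above, for the block, both changes together, other methods, scaling or filters. It is also not given for only the groups compared, or with 1 library or experiment left out. Those counts therefore describe the settings and not these genes alone.

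Leaving out 1 library or experiment gave 0 to 4 (flg22, 120 min), 0 to 16 (flg22, 180 min), 4 to 21 (Ed, 300 min), 0 to 13 and 8 to 29 (flg22+Ed, 120 and 180 min), 8 to 26 (flg22+Ed against flg22, 300 min), 0 to 2 and 0 to 19 (flg22+Ed against Ed, 120 and 180 min), 0 to 17 (Ed against flg22), 0 to 3, 0 to 13, 0 to 18 and 0 to 14 (Mock against untouched) and 0 to 28 (flg22+Ed, 300 minus 180 min). Under Ed at 180 min, where 0 genes passed, 5 changes took both signs: RBCS1A ran from -0.47 to 0.012, SBPASE from -0.25 to 0.23, HPR1 from -0.27 to 0.067, GLYK from -0.14 to 0.13 and SHM1 from -0.14 to 0.45. Where an arm was left with 2 libraries, its spread was taken from all groups. PGLP1 and its near-identical copy AT5G36790 had too few counts to test in libraries of 1.46 to 4.67 M counts, and the cause was not tested.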
